A study of Mus musculus with 13 samples.

Results

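The data are the 551 sequences that the deposited small RNA table of mouse myeloid cells assigns to small nucleolar RNAs (snoRNAs), of 18385 sequences in all. They were chosen by the RNA class written in that table and by nothing measured. The 551 sequences lie on 198 snoRNA records, all on the sense strand of their record, and are between 16 and 101 bases long with a median of 30 bases. Sequences that share a run of 14 bases were joined into 111 families, 51 of which hold 1 sequence. The table names a record only by an identifier, with no gene symbol, so families are numbered here by their mean level and no gene name is given to any of them.

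A snoRNA is a short, stable RNA of the nucleolus, in mammals mostly cut out of introns. Box C/D snoRNAs carry a C box near the 5′ end and a D box near the 3′ end and guide 2′-O-methylation of ribosomal RNA, while box H/ACA snoRNAs guide pseudouridylation. A few snoRNAs act in the cleavage of the ribosomal RNA precursor rather than in its modification. A small RNA library reads either the whole of a short snoRNA or pieces of it.

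Small RNA was sequenced from 9 libraries, 1 for each group, so there is no replicate within a group. Bone marrow neutrophils freshly isolated from wildtype mice gave a library purified on beads of wheat germ agglutinin (WGA, a lectin that binds sialic acid and N-acetylglucosamine) and an input library. HOXB8 cells, a myeloid progenitor line that estradiol keeps from maturing, were kept in 1 µM β-estradiol and 100 ng/ml SCF and gave a biotin, a WGA and an input library. Differentiated HOXB8 cells had the same medium without β-estradiol and gave those same 3 kinds of library plus a biotin library digested with PNGase F, an enzyme that removes N-glycans. Per the labels' protocol, labelling lasted 36 h and used Ac4ManNAz at 100 µM, a sugar that cells turn into sialic acid carrying an azide. The labels do not say whether the neutrophils were labelled. Gal at 10 µM and GalNAc at 100 µM were in the medium too. Biotin was attached to the azide with DBCO-PEG4-biotin and captured on streptavidin. Selection on a gel for RNA of less than 300 nt is stated for the inputs only, so purification and this step cannot be told apart. The labels do not say how many mice or cultures stand behind a library.

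The libraries held between 3110323 and 9922659 reads. Levels are RPM, reads scaled to library size, and the table holds between 39.3% and 96.7% of a library's reads. Apart from those given with a limma p, all intervals below are 95% intervals of counting error only. The WGA library of neutrophils stands apart in its number of distinct sequences, although it is the deepest. It holds 141 of the 551 snoRNA sequences, against between 303 and 433 in the other 8 libraries. Over all classes of the table it holds 4966 distinct sequences, against between 8298 and 12120. The snoRNAs were 2.84% of its distinct sequences, against between 2.50% and 5.11% in the other 8 libraries.

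Some sequences show what the class is made of. The first 4 are abundant 3′ end pieces of families 1 and 2, with their last 10 bases in capitals, and the fifth is an inner piece of family 1.

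Family 1, 26 bases: gagggagggaacgcagTCTGAGTGGA
Family 1, 17 bases: aacgcagTCTGAGTGGA
Family 1, 33 bases: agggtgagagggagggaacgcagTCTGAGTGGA
Family 2, 18 bases: ggacacagTCTGAGTGGT
Family 1, inner piece of 25 bases: ccacgaggacgagacgtagcgttcc

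The next 5 come from families of box C/D form and are shown because they carry the contrast between pieces and whole molecules. Capitals mark the C box core TGATGA near the 5′ end and the D box CTGA near the 3′ end. The 53-base sequence of family 5 is a piece with the C box end only, and the 67-base sequence continues it through the D box.

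Family 5, 53 bases: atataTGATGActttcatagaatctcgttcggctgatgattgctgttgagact
Family 5, 67 bases: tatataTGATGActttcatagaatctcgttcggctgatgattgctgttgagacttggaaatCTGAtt
Family 10, 58 bases: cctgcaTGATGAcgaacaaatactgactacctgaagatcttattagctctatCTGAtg
Family 11, 74 bases: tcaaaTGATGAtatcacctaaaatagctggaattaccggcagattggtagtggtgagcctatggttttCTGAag
Family 12, 77 bases: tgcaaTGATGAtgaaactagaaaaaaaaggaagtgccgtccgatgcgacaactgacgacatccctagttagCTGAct

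The class as labelled holds box C/D motifs. Among sequences of 20 or more bases, read on their own strand only, TGATGA occurred in 50.4% of 450 snoRNA sequences, against 0.413% of 10652 sequences of the other classes. CTGA occurred in 78.2% of the snoRNA sequences, against 12.2% of the others, and both motifs overlapped, as CTGATGA, in 33 of the 450. ACA within the last 6 bases, the mark of an H/ACA end, was found in 5.56% of snoRNA sequences, against 1.67% of the others. Of the 158 sequences of 55 or more bases outside families 1 and 2, 72.8% had a C box near the 5′ end together with a D box near the 3′ end, against 0.558% of other-class sequences of that length. These are matches of letters in the sequences and not mapped sites.

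The class was split into a pair of groups, described by where their sequences end or start on their own records. Families 1 and 2 hold 140 and 35 sequences, and 76.6% of these 175 end within 3 bases of the most frequent end of their family, which is position 265 of the record in family 1 and 263 in family 2. In the other 109 families, with 376 sequences, 62.2% start at position 50 to 54 of their record. These are ends in one group and starts in the other, on different records, so they do not compare places on one molecule. Of the 158 sequences of 55 or more bases in the other families, 132 had a D box near the 3′ end. Families 1 and 2 were set apart after their values were seen, so the split is a description and carries no test of its own. Family 1 lies on 18 records that are near-identical there, so reads could be split between copies, and levels are summed over a family for that reason.

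In every kind of cell the summed snoRNA level was lower in the purified library than in its input. In neutrophils it was 36271 RPM in the WGA library and 66545 RPM in the input, which are 3.63% and 6.65% of the reads. In differentiated HOXB8 cells it was 13318.5 RPM after biotin purification and PNGase F, 14080 RPM after biotin, 9687 RPM after WGA and 78181 RPM in the input. In HOXB8 cells it was 4055 RPM after biotin, 4988 RPM after WGA and 22394 RPM in the input.

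The log2 ratio of WGA to input was -0.88 in neutrophils, -3.01 in differentiated HOXB8 cells and -2.17 in HOXB8 cells. The mean log2 ratio was -2.02, lower in 3 of 3 kinds of cell, with a two-sided exact sign-flip permutation p of 0.25, the smallest that 3 kinds of cell allow. The ratio of biotin to input was -2.47 in differentiated and -2.47 in HOXB8 cells on the log2 scale, with 1 library in each group and no test.

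That direction came from families 1 and 2, and the other 109 families summed ran the opposite way. The first pair had 15.1 RPM in the WGA library of neutrophils, against 59856 RPM in the input. Their level in differentiated HOXB8 cells was 408 RPM after biotin and PNGase F, 631 RPM after biotin and 450 RPM after WGA, against 76320 RPM in the input. In HOXB8 cells they had 475 RPM after biotin and 809 RPM after WGA, against 21255 RPM in the input. No purified library came near an input, and families 1 and 2 made up between 0.0417% and 16.2% of snoRNA reads in purified libraries, against between 89.9% and 97.6% in inputs.

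The other 109 families had 36256 RPM in the WGA library of neutrophils, against 6689 RPM in the input, a ratio of 5.42 (5.35 to 5.50). Their level in differentiated HOXB8 cells was 12911 RPM after biotin and PNGase F, 13449 RPM after biotin and 9238 RPM after WGA, against 1861 RPM in the input. In HOXB8 cells they had 3580 RPM after biotin and 4180 RPM after WGA, against 1139 RPM in the input. Each purified library was thus above the input of its own cells, by log2 ratios of 2.44, 2.31 and 1.88 for WGA in neutrophils, differentiated HOXB8 and HOXB8 cells, and of 2.85 and 1.65 for biotin in differentiated and undifferentiated HOXB8 cells. Without family 3, the family with the highest level among them in neutrophils, the log2 ratios of WGA to input were 2.11, 2.35 and 2.14 in the same order of cells. The table holds 70.2% and 39.3% of the reads of the differentiated and HOXB8 inputs. It holds between 90.6% and 96.7% of those of their WGA and biotin libraries. Ratios in RPM for these cells are therefore larger than ratios of shares of the table. For all sequences with a mean of 5 RPM or more, the median log2 ratio of WGA to input was 0.11, 1.53 and 2.68 in that order. For biotin it was 0.69 and 1.29 in differentiated and undifferentiated HOXB8 cells.

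**Figure D1:**
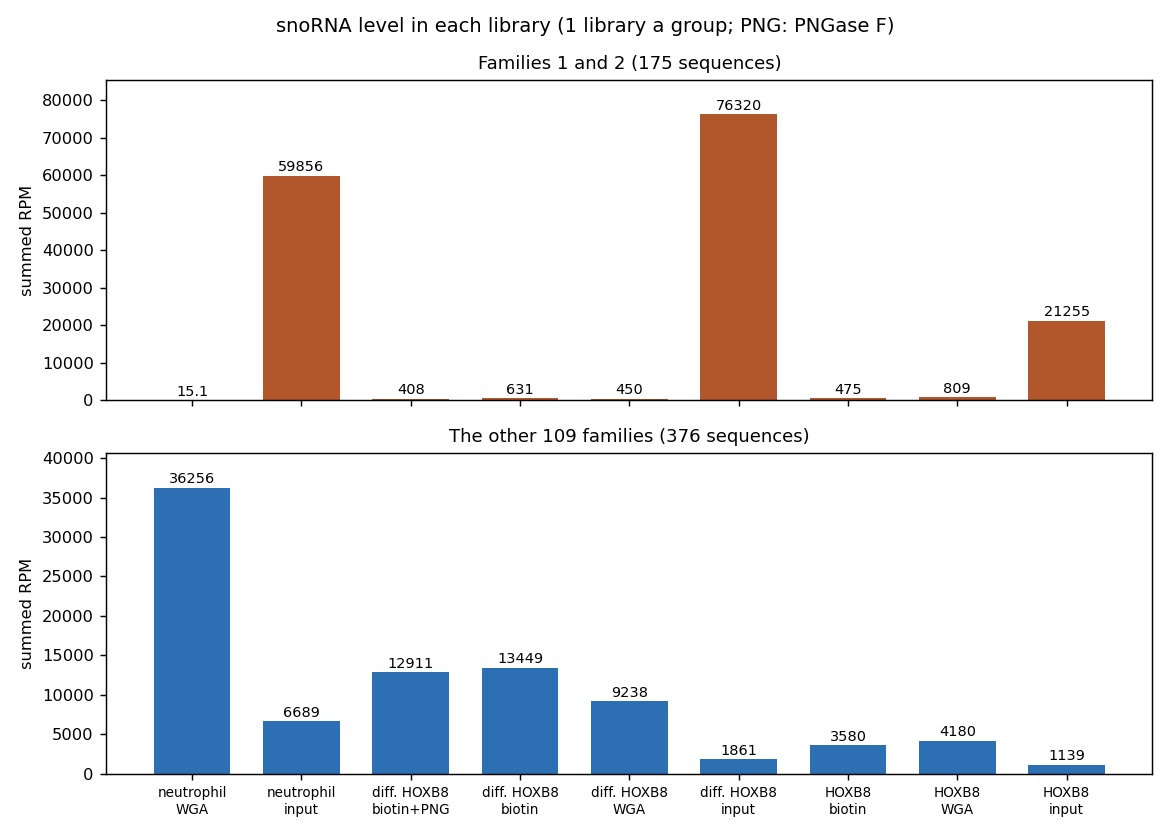
Summed level in RPM (linear axes from 0, with different scales) of families 1 and 2 above and of the other 109 families below, 1 bar for each library. In each kind of cell families 1 and 2 are high in the input and low in the purified libraries, and the other families are higher in the purified libraries than in the input.

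The 3′ end pieces of families 1 and 2 are the bulk of the inputs' snoRNA reads. The 26-base sequence printed above, on record URS000008D928_10090, had 2.12 RPM in the WGA library of neutrophils, against 10664 RPM in their input. Differentiated HOXB8 cells had 10.7 RPM after biotin and PNGase F, 51.9 RPM after biotin and 0.586 RPM after WGA, against 11432 RPM in the input. HOXB8 cells had 9.72 RPM after biotin and 11.05 RPM after WGA, against 2893 RPM in the input. It was the highest snoRNA sequence of all 3 inputs and its purified and input levels did not overlap. Over the 3 kinds of cell its WGA to input log2 ratio was -10.82 (95% interval -13.68 to -7.96, limma adjusted p = 2.38e-10).

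The 17-base sequence of family 1, which lacks the first bases of the 26-base piece, had 1.21 RPM in the WGA library of neutrophils, against 6096 RPM in their input. It had more reads in some of the other purified libraries, with 70.6 RPM in the WGA library of HOXB8 cells, against 2876 RPM in the input. The 18-base sequence of family 2, on record URS0000E60B2B_10090, had 0.202 RPM in the WGA library of neutrophils, against 2706 RPM in the input, and 0 and 0.181 RPM in the WGA libraries of differentiated and HOXB8 cells, against 2855 and 901 RPM in their inputs. Its WGA to input log2 ratio over the 3 kinds of cell was -10.73 (limma adjusted p = 1.02e-09).

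Family 1 formed a ladder of lengths that share a 3′ end. Pieces with the same last bases as those printed made up 95.7% of family 1 in the neutrophil input, 97.5% in the differentiated HOXB8 input and 97.0% in the HOXB8 input. The share was 45.3% in the WGA library of neutrophils, 67.6%, 58.1% and 63.3% in the PNGase F, biotin and WGA libraries of differentiated HOXB8 cells, and 77.7% and 60.2% in the biotin and WGA libraries of HOXB8 cells. All 3 inputs had their highest step at 26 bases, with further high steps at 17, 18, 21, 25, 33 and 34 bases among others. In the WGA libraries of both kinds of HOXB8 cell the highest step was at 16 bases, at 54.1 RPM in differentiated and 89.6 RPM in HOXB8 cells.

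**Figure D2:**
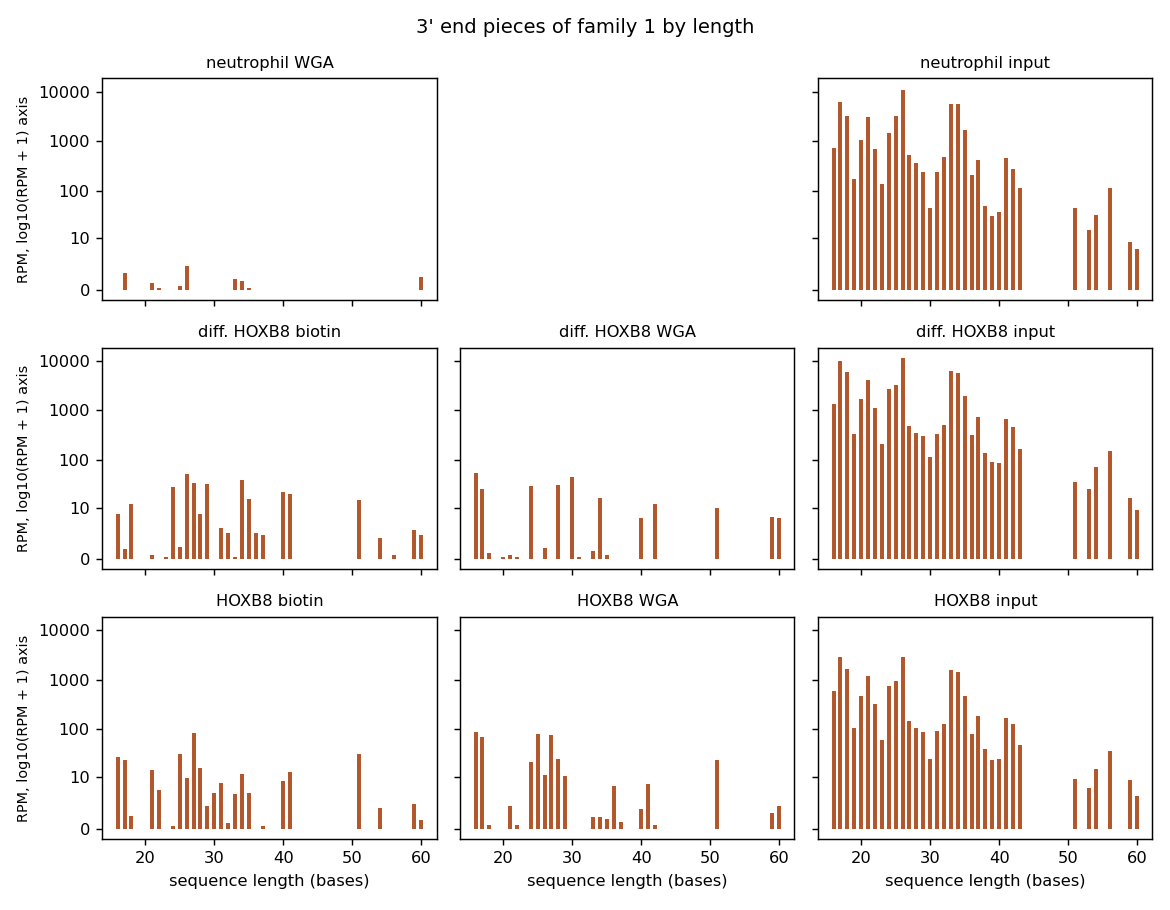
RPM of family 1 sequences with the shared 3′ end by their length in bases, on a log10(RPM + 1) axis, for 8 libraries (purified left of the input, 1 row for each kind of cell, up to 60 bases). The 3 inputs show the same steps, highest at 26 bases, and the purified libraries hold few of them.

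Inner pieces of families 1 and 2, those that end before position 257 of the record, did not share the low level of the 3′ end pieces in every kind of cell. The 29 inner sequences summed to 0 RPM in the WGA library of neutrophils, against 91.3 RPM in the input, at least 302-fold lower with 3 reads as the floor. Differentiated HOXB8 cells had 178 RPM after biotin and 119 RPM after WGA, against 165 RPM in the input. In HOXB8 cells they had 69.5 RPM after biotin and 221 RPM after WGA, against 47.0 RPM in the input, a WGA to input ratio of 4.71 (4.02 to 5.54). The 25-base inner sequence printed above is an extreme case, with 55.8 RPM in the WGA library of HOXB8 cells and 0 reads in the other 8 libraries. It is part of the 221 RPM, so the ratio of 4.71 rests in part on a sequence seen in that library alone. The interval of that ratio covers counting error only. Whether such sequences entered the table because of their level in that library was not tested, so the size of the ratio is uncertain. The 146 sequences of 3′ end pieces were lower in the purified library in every kind of cell, 36.1-fold in HOXB8 cells after WGA (34.8 to 37.4) and 230-fold in differentiated HOXB8 cells after WGA (222 to 239).

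Over the 3 kinds of cell, limma called 75 of 260 tested snoRNA sequences between WGA and input, 74 lower and 1 higher. Among all 7220 sequences tested, 6.32% were called lower and 0.111% higher. Families 1 and 2 account for 71 of the lower calls among their 139 tested sequences. The other families had 121 tested sequences of 376, with 3 lower and 1 higher, and their median log2 ratio was -0.09, against -0.28 for all sequences tested. The count depends on differentiated HOXB8 cells, since without that kind of cell limma called 0 snoRNA sequences (58 had an unadjusted p under 0.05). Without HOXB8 cells it called 37, all lower, and edgeR on whole reads with all 3 kinds called 42, all lower. Without neutrophils limma called 125, 24 higher and 101 lower, when 2843 of all 8746 sequences tested were called. The joint fit over all 9 libraries called 119, 12 higher and 107 lower, and a filter at a mean of 50 RPM left 53 calls, 8 higher and 45 lower, so the split of 74 lower and 1 higher depends on these choices. The remaining snoRNA sequences did not reach a mean of 5 RPM over the 6 libraries and were not tested.

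The 4 calls outside families 1 and 2 lie in different families. The higher one is a 36-base sequence that is family 20 by itself, with 249 RPM in the WGA library and 10.9 RPM in the input of neutrophils, 95.3 and 0.525 RPM in differentiated HOXB8 cells, and 42.4 and 1.33 RPM in HOXB8 cells. Its log2 ratio was 4.86 (95% interval 1.88 to 7.85, limma adjusted p = 0.0298), higher in 3 of 3 kinds of cell. The lower ones were a 24-base D box end of family 24, a 32-base D box end of family 14 and a 16-base sequence of family 28 with the C box core. The family 14 sequence had 0, 0 and 0.181 RPM in the WGA libraries of neutrophils, differentiated and HOXB8 cells, against 348, 45.4 and 9.08 RPM in their inputs (log2 ratio -5.69, limma adjusted p = 0.00902).

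Between biotin and input, in a fit over all 9 libraries, limma called 83 of 265 tested snoRNA sequences, 13 higher and 70 lower. Among all 7027 sequences tested, 3.13% were called higher and 9.36% lower. Families 4, 5, 10, 11 and 12 are among those with higher sequences, and each of the 13 holds the C box core. The 3 lower calls outside families 1 and 2 lie in families 24, 43 and 52. Those of families 43 and 52 hold the C box core too. Outside families 1 and 2 the core occurs in 66.5% of the 310 sequences of 20 or more bases and 57.6% of the 66 shorter ones. This count depends on the settings. With no filter on low values limma called 0 snoRNA sequences (221 had an unadjusted p under 0.05). EdgeR on whole reads, with the filter kept, also called 0 (123 under 0.05). With a pseudocount of 10 RPM limma called 72, and with a filter at a mean of 50 RPM it called 36.

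The 53-base piece of family 5, on record URS0001BC199C_10090, is the clearest of these. It had 548 RPM after biotin and PNGase F, 629 RPM after biotin and 258 RPM after WGA in differentiated HOXB8 cells, against 24.2 RPM in the input. In HOXB8 cells it had 118 RPM after biotin and 56.9 RPM after WGA, against 4.004 RPM in the input. In neutrophils it had 3287 RPM after WGA, against 106 RPM in the input, so that all purified libraries lay above their own inputs. The biotin to input log2 ratio was 4.86 (95% interval 2.03 to 7.68, limma adjusted p = 0.0153).

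The whole 67-base molecule of the same family went another way in neutrophils. It had 0 reads in their WGA library, against 8.68 RPM in the input. Its level in differentiated HOXB8 cells was 144 RPM after biotin and PNGase F, 126 RPM after biotin and 5.86 RPM after WGA, against 3.68 RPM in the input. The WGA library of neutrophils thus held the piece that stops short of the D box at a high level and no read of the sequence that goes on through it.

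The 58-base sequence of family 10 had 170 RPM after biotin and 45.2 RPM after WGA in differentiated HOXB8 cells, against 1.05 RPM in the input. In HOXB8 cells it had 28.5 RPM after biotin and 11.2 RPM after WGA, against 0 reads in the input. In neutrophils it had 0 reads after WGA, against 3.86 RPM in the input. Its biotin to input log2 ratio was 4.58 (limma adjusted p = 0.0378), and biotin was above WGA in both kinds of HOXB8 cell.

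By family, a few carried most of the summed level. The 3 highest of the other 109 families held 80.9% of their reads in the WGA library of neutrophils and between 52.1% and 62.9% in the other 5 purified libraries. Family 3, 9 sequences of 16 to 19 bases that all hold the C box core TGATGA, had 16928 RPM in the WGA library of neutrophils, against 2203 RPM in the input. Differentiated HOXB8 cells had 1402 RPM after biotin and PNGase F, 1224 RPM after biotin and 2026 RPM after WGA, against 444 RPM in the input. In HOXB8 cells it had 997 RPM after biotin and 1403 RPM after WGA, against 507 RPM in the input. A single 17-base sequence gave 12465 of the 16928 RPM, and a sequence that short can match more than 1 RNA, so its class is uncertain.

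Family 4, with sequences of 19 to 65 bases, was the highest family in the purified libraries of differentiated HOXB8 cells. It had 5770 RPM after WGA in neutrophils, against 424 RPM in the input. Differentiated HOXB8 cells had 3448 RPM after biotin and PNGase F, 3576 RPM after biotin and 3119 RPM after WGA, against 139 RPM in the input. In HOXB8 cells it had 610 RPM after biotin and 753 RPM after WGA, against 40.8 RPM in the input. Its WGA and biotin libraries were between 13.6-fold and 25.7-fold above the input of the same cells.

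The ratios of family 11 were larger. It had 510 RPM after biotin and 216 RPM after WGA in differentiated HOXB8 cells, against 7.35 RPM in the input, a biotin to input ratio of 69.3 (47.9 to 104). In HOXB8 cells family 11 had a WGA to input ratio of 49.0 (26.5 to 103) and family 12 of 46.0 (26.8 to 86.8). These inputs hold between 10 and 28 reads of the family, which sets the width of the intervals. Family 30, whole molecules of 63 to 65 bases with both boxes, had 106 RPM after biotin in differentiated HOXB8 cells, against a single read in the input, a ratio of 404 (72.4 to 15986).

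Family 6, 3 sequences of 19 to 68 bases, was above its input in all purified libraries. It had 954 RPM after WGA in neutrophils, against 184 RPM in the input. It had 816 RPM after biotin and 376 RPM after WGA in differentiated HOXB8 cells, against 52.0 RPM in the input, and 312 RPM after biotin and 333 RPM after WGA in HOXB8 cells, against 31.0 RPM in the input.

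Apart from families 1 and 2, families 14, 21, 24, 28 and 31 were those with a mean of 50 RPM or more that lay below the input in a biotin or WGA library of either kind of HOXB8 cell. Family 24 had 13.2 RPM after biotin in differentiated cells, against 139 RPM in the input, and family 14 had 0 reads after WGA, against 133 RPM. In HOXB8 cells family 31 had 11.9 RPM after biotin, against 88.9 RPM in the input. Family 21 had 58.1 RPM after WGA in HOXB8 cells, against 88.1 RPM in the input, a ratio of 0.660 (0.564 to 0.772).

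**Figure D3:**
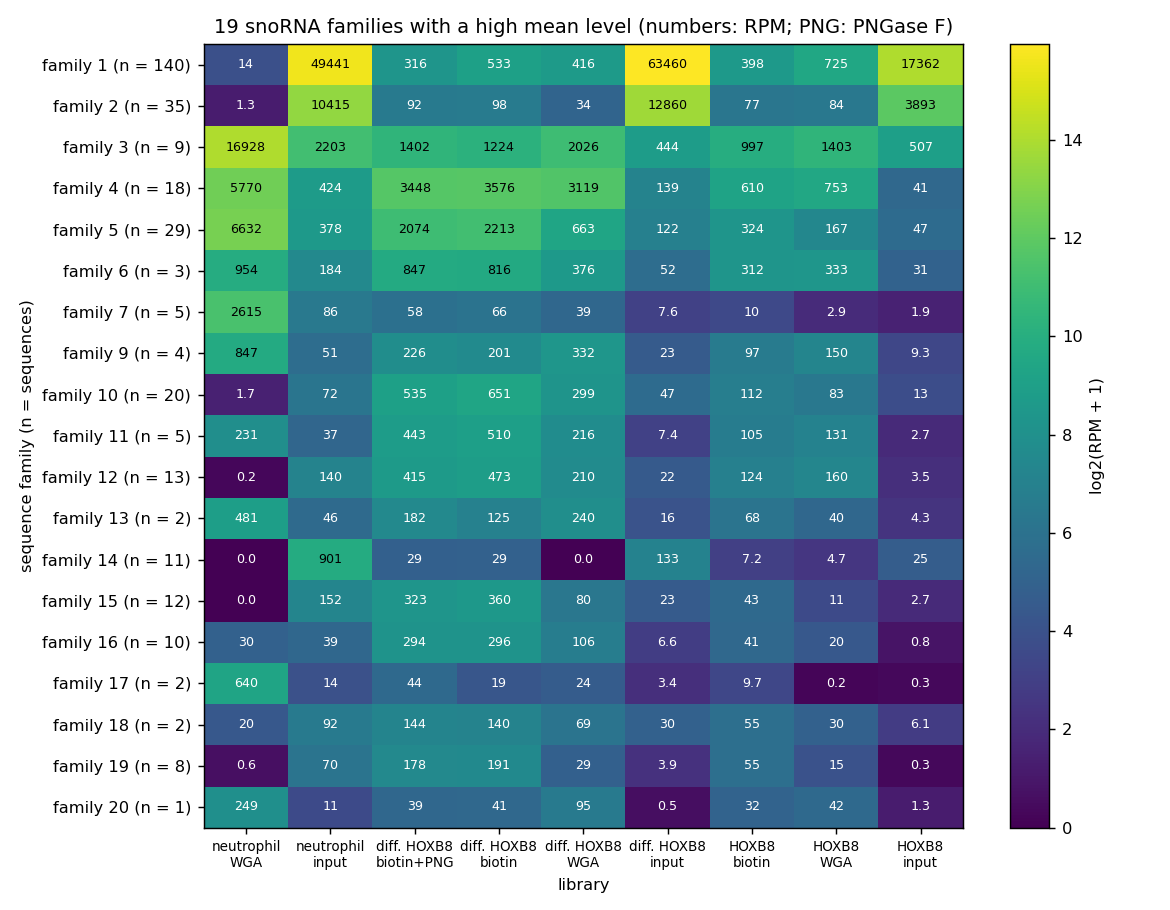
Level of 19 families with a high mean RPM (rows) in the 9 libraries (columns), coloured by log2(RPM + 1), with the RPM written in each cell. Families 1 and 2 are bright in the 3 inputs, families 3 to 5 in the purified libraries, and families 10, 12 and 15 are dark in the WGA library of neutrophils.

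Counted by sequence rather than by reads, the other families in neutrophils were near the background for higher sequences and above it for lower ones. In both kinds of HOXB8 cell they were above the background for higher sequences and below it for lower ones. Between WGA and input in neutrophils, 65 of their 148 sequences with a mean of 5 RPM or more were at least 2-fold higher (43.9%), while 43.5% of all sequences were. At least 2-fold lower were 80 of the 148 (54.1%), while 43.1% of all were. Between WGA and input in differentiated HOXB8 cells, 90 of 127 were 2-fold higher, with a background of 53%, and 31 lower, with a background of 39.7%. In HOXB8 cells 48 of 66 were 2-fold higher, with a background of 63.3%, and 9 lower, with a background of 27.3%. Between biotin and input, 133 of 172 in differentiated HOXB8 cells (background 48.2%) and 39 of 63 in HOXB8 cells (background 52.3%) were higher. Lower were 25 of 172 (background 40.2%) and 13 of 63 (background 35.9%).

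The neutrophil result therefore rests on a few families with high levels. Their median log2 ratio over sequences was -3.30, against 0.11 for all sequences, although the summed level was 5.42-fold higher. Of 49 other families with a mean of 10 RPM or more in the pair, 17 were at least 2-fold higher and 26 at least 2-fold lower in the WGA library of neutrophils. After WGA in differentiated HOXB8 cells 34 of 47 families were higher and 11 lower, and in HOXB8 cells 22 of 29 were higher and 4 lower.

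Among families with a mean of 50 RPM or more in the pair, the highest WGA to input ratios of neutrophils were those of families 22, 17 and 7. Family 7 had 2615 RPM after WGA, against 86.2 RPM in the input of neutrophils, a ratio of 30.3 (26.9 to 34.4). A single 41-base sequence made up 2379 of the 2615 RPM. Family 17 had 640 RPM after WGA, against 14.5 RPM in the input, of which a 101-base sequence, as long as any in the table, gave 415 RPM after WGA and 1.93 RPM in the input. Family 22 had 242 RPM after WGA, against 3.86 RPM in the input. The WGA library of differentiated HOXB8 cells held 39.2 RPM of family 7, 24.2 RPM of family 17 and 48.6 RPM of family 22, each below its level in the WGA library of neutrophils.

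Other families were at or near 0 in the WGA library of neutrophils. Family 12 had 0.202 RPM there, which is 2 reads, against 140 RPM in the input, a ratio of 0.00144 (0.000174 to 0.00525). Family 15 had 0 reads, against 152 RPM in the input, at least 503-fold lower with 3 reads as the floor. Family 14, 11 sequences of 3′ D box ends, had 0 reads, against 901 RPM in the input, at least 2980-fold lower with the same floor. Families 12 and 15 were above their inputs in both kinds of HOXB8 cell, while family 14 was lower there too. In differentiated cells they had 210 and 80.5 RPM after WGA, against 21.8 and 22.8 RPM in the input for families 12 and 15. A single 17-base sequence gave 153 of the 210 RPM of family 12.

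Sequences with both boxes and pieces with the C box end only took different directions in neutrophils. Sequences with both boxes, 130 in all with a median length of 67 bases, summed to 170 RPM in the WGA library of neutrophils, against 774 RPM in the input, a ratio of 0.220 (0.206 to 0.234). Differentiated HOXB8 cells had 3604 RPM after biotin and PNGase F, 4038 RPM after biotin and 1135 RPM after WGA, against 140 RPM in the input. In HOXB8 cells they had 682 RPM after biotin and 353 RPM after WGA, against 30.2 RPM in the input. The WGA library was thus below its input in neutrophils and 8.12-fold (7.44 to 8.88) and 11.7-fold (9.68 to 14.3) above it in differentiated and HOXB8 cells. The 130 include 9 sequences of 20 to 34 bases and 6 of 35 to 54 bases, so they are not all whole molecules. Sequences of 39 and 38 bases in family 22 gave 124 and 33.0 of the 170 RPM in the WGA library of neutrophils. A 27-base sequence of family 10 gave 18.9 and 8.28 RPM in the inputs of differentiated and HOXB8 cells.

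Pieces with a C box core starting within their first 15 bases and no D box near the 3′ end, called C box end only, 107 sequences with a median of 26 bases, had 30492 RPM in the WGA library of neutrophils, against 3288 RPM in the input, a ratio of 9.27 (9.09 to 9.46). They had 6344 RPM after WGA, against 1016 RPM in the input, in differentiated HOXB8 cells and 2977 RPM after WGA, against 912 RPM in the input, in HOXB8 cells. Without family 3, in which so short a sequence does not place the box near an end, they had 13564 RPM after WGA, against 1085 RPM in the input, in neutrophils. They were higher in the WGA library of all 3 kinds of cell, with and without family 3. Pieces with the D box end only, 58 sequences, had 848 RPM after WGA, against 1543 RPM in the input, in neutrophils. After WGA they had 575 RPM, against 365 RPM in the input, in differentiated HOXB8 cells, and 206 RPM, against 59.8 RPM in the input, in HOXB8 cells. Family 9, whose 4 sequences start at record positions 51 to 53, gave 847 of the 848 RPM in the WGA library of neutrophils, against 51.4 RPM in the input, and had 332 RPM after WGA in differentiated HOXB8 cells, against 22.6 RPM in the input. Its sequences end by position 78, so their CTGA is a match of letters that is not placed at the 3′ end of a snoRNA. The 54 sequences without family 9 had 0.302 RPM after WGA, which is 3 reads, against 1491 RPM in the input, in neutrophils. They had 243 RPM after WGA, against 343 RPM in the input, in differentiated HOXB8 cells (ratio 0.709, 0.661 to 0.760) and 56.0 RPM after WGA, against 50.5 RPM in the input, in HOXB8 cells (ratio 1.11, 0.922 to 1.34). After WGA, family 9 was thus above its input in neutrophils and differentiated HOXB8 cells and the rest below. In HOXB8 cells the WGA interval for the rest includes a ratio of 1. After biotin the 54 sequences were above the input, with a ratio of 1.42 (1.33 to 1.51) in differentiated HOXB8 cells. In HOXB8 cells the biotin ratio was 1.60 (1.35 to 1.90).

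Length followed the same lines. Sequences of 55 or more bases were 1.43% of the other families' reads in the WGA library of neutrophils, against 11.7% in the input. They were 30.8% after biotin and PNGase F, 32.8% after biotin and 12.05% after WGA in differentiated HOXB8 cells, against 5.09% in the input. They were 20.9% after biotin and 8.42% after WGA in HOXB8 cells, against 1.29% in the input. Sequences of 35 to 54 bases held 32.5% of the other families' reads in the WGA library of neutrophils, against 8.10% in the input. They held between 1.71% and 14.2% in the other 7 libraries. A few sequences carried most of the neutrophil WGA level of 11791 RPM. Sequences of 53 and 54 bases in family 5 gave 3287 and 2989 RPM, and a 40-base sequence of family 4 gave 2090 RPM.

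The other RNA classes of the same libraries did not have this length pattern. Their sequences of 55 or more bases were 21.7% of reads in the WGA library of neutrophils, against 6.97% in the input. They were 0.984% after biotin and 0.144% after WGA in differentiated HOXB8 cells, against 4.09% in the input, and 0.2503% and 0.0856% in HOXB8 cells, against 1.95% in the input. In each kind of cell the long sequences of the other classes thus moved opposite to those of the snoRNA families between WGA and input. Whether gel selection of the inputs has a part in this was not tested.

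**Figure D4:**
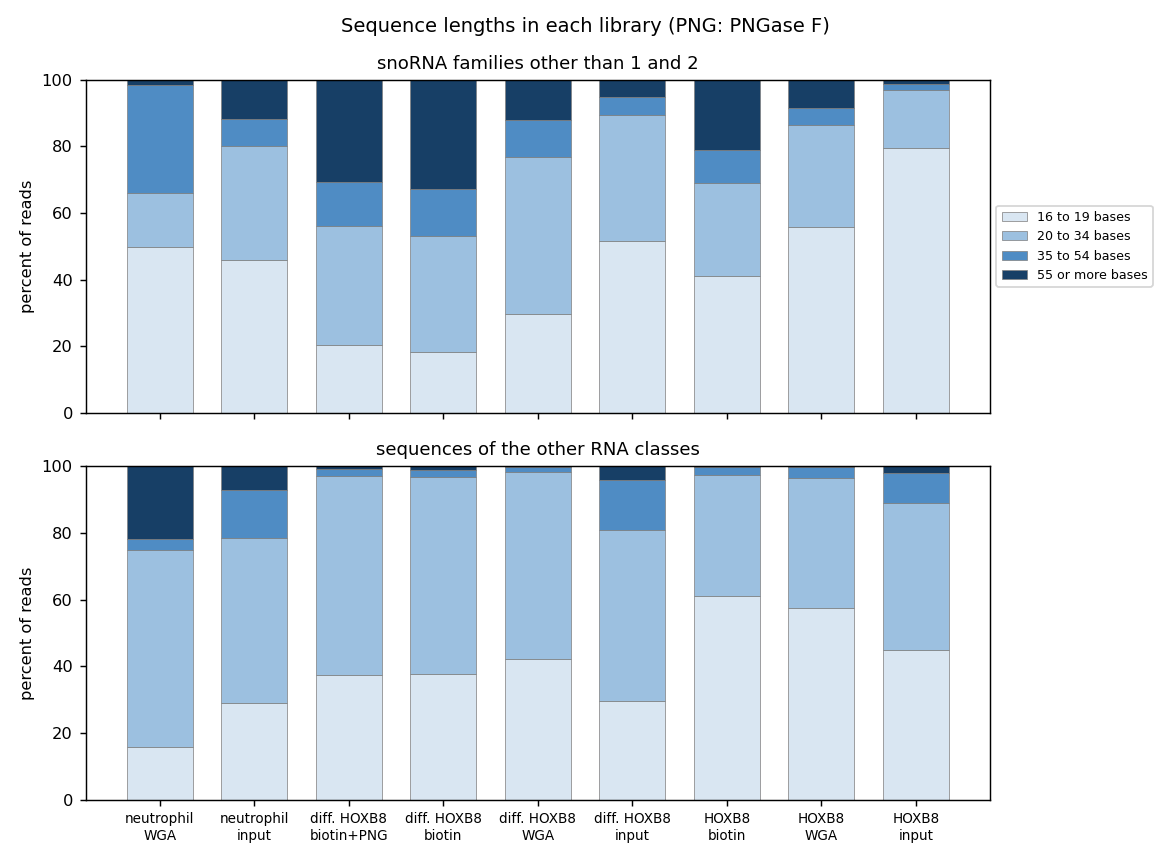
Share of reads in 4 length classes (percent, each bar sums to 100) in the 9 libraries, for the snoRNA families other than 1 and 2 above and for sequences of the other RNA classes below. Long snoRNA sequences take 30.8% and 32.8% in the PNGase F and biotin libraries of differentiated HOXB8 cells and 1.43% in the WGA library of neutrophils.

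After PNGase F digestion the snoRNA profile of differentiated HOXB8 cells was close to that of the undigested biotin library. Summed snoRNA was 13318.5 RPM after PNGase F, against 14080 RPM without it, a log2 ratio of -0.08 (-0.09 to -0.07), and the other families had 12911 RPM, against 13449 RPM. Of 52 families, 1 and 2 included, with a mean of 10 RPM or more, 50 lay within 2-fold and 44 within 1.5-fold, and the log2 levels had a Pearson correlation of 0.975 across these families, which share 2 libraries and are not replicates. By sequence, 12 of 250 were at least 2-fold higher after PNGase F, with a background of 17.9%, and 23 were lower, with a background of 21.2%.

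Family 1 and the inner pieces were lower after digestion. Family 1 had 316 RPM after PNGase F, against 533 RPM without it, 1.69-fold lower (1.60 to 1.78). Inner pieces of families 1 and 2 had 73.3 RPM after PNGase F, against 178 RPM without it, 2.43-fold lower (2.19 to 2.70). Family 13 had the highest ratio among families with a mean of 50 RPM or more, with 182 RPM after PNGase F, against 125 RPM without it, 1.45-fold (1.33 to 1.58). With 1 library a group these differences have no replicate check.

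Fewer families lay within 2-fold between biotin and WGA than between the digested and undigested biotin libraries. Between biotin and WGA in differentiated HOXB8 cells 17 of 49 families, 1 and 2 included, lay within 2-fold, and in HOXB8 cells 21 of 35. Sequences with both boxes were 3.56-fold (3.48 to 3.64) higher after biotin than after WGA in differentiated HOXB8 cells and 1.93-fold (1.83 to 2.04) higher in HOXB8 cells. Pieces with the C box end only were 1.16-fold (1.14 to 1.17) higher in differentiated cells but 1.36-fold (1.33 to 1.40) lower in HOXB8 cells. Among families with a mean of 50 RPM or more in the pair, the largest ratios in differentiated cells were those of families 27, 19 and 23, with family 27 at 98.0 RPM after biotin, against 11.4 RPM after WGA. By sequence, 127 of 230 were at least 2-fold higher after biotin in differentiated cells, with a background of 33.9%, and 44 lower, with a background of 38.6%. In HOXB8 cells 26 of 109 were higher, with a background of 12.9%, and 47 lower, with a background of 41.4%.

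**Figure D5:**
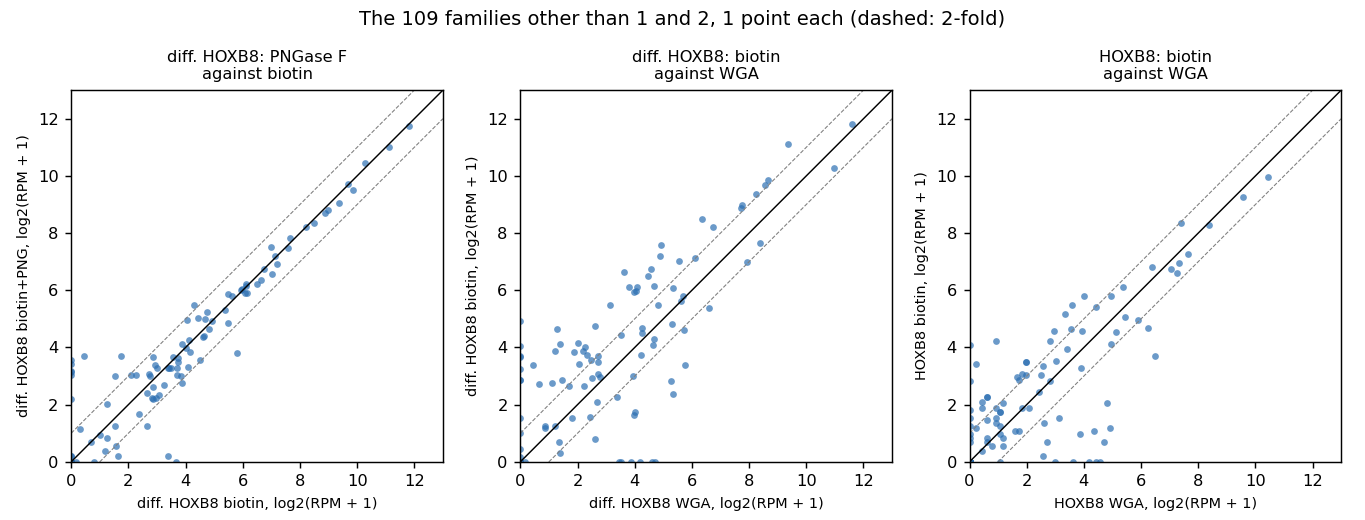
Each of the 109 other families as 1 point, log2(RPM + 1) in the 2 libraries named on the axes, with the line of equal level and dashed lines at 2-fold. Points lie close to the line for PNGase F against biotin (48 of 50 of these families with a mean of 10 RPM or more within 2-fold) and spread for biotin against WGA in differentiated (16 of 47) and HOXB8 cells (19 of 33).

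Differentiation of HOXB8 cells went with more snoRNA reads in each kind of library. Inputs held 78181 RPM in differentiated cells, against 22394 RPM in HOXB8 cells, a 3.49-fold ratio (3.46 to 3.52), of which families 1 and 2 gave 76320 and 21255 RPM. The table holds 70.2% of the reads of the differentiated input but 39.3% of those of the HOXB8 input. Of the reads in the table, snoRNAs were 11.1% and 5.70% in these inputs, a smaller difference than that in RPM. In the biotin libraries the other families had 13449 RPM in differentiated cells, against 3580 RPM in HOXB8 cells, 3.76-fold (3.70 to 3.81), and in the WGA libraries 9238 RPM, against 4180 RPM, 2.21-fold (2.18 to 2.24). The sum of families 1 and 2 ran the other way in the WGA libraries, with 450 RPM in differentiated cells, against 809 RPM in HOXB8 cells.

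By sequence, 163 of 204 were at least 2-fold higher in the differentiated input (background 30.9%) and 3 lower (background 21.6%). In the biotin libraries 162 of 195 were higher in differentiated cells (background 25.3%) and 11 lower (background 32.9%). In the WGA libraries 86 of 156 were higher (background 29.1%) and 37 lower (background 53.8%). Family 3 did not share the higher level in the inputs, with 444 RPM in differentiated cells, against 507 RPM in HOXB8 cells. Among families with a mean of 50 RPM or more in the pair, family 15 had the largest ratio in the biotin libraries, with 360 RPM in differentiated cells, against 43.3 RPM in HOXB8 cells, 8.31-fold (7.34 to 9.44).

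Neutrophil input had 66545 RPM of snoRNA, against 78181 RPM in the input of differentiated HOXB8 cells, and families 1 and 2 were again the bulk, with 59856 and 76320 RPM. The other families were 3.59-fold (3.498 to 3.69) higher in the neutrophil input, with 6689 RPM, against 1861 RPM. Family 14 had 901 RPM, against 133 RPM, 6.76-fold (6.14 to 7.44), and family 12 had 140 RPM, against 21.8 RPM. By sequence, 91 of 258 were at least 2-fold higher in the neutrophil input (background 21%) and 39 lower (background 56%).

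Between the WGA libraries the other families had 36256 RPM in neutrophils, against 9238 RPM in differentiated HOXB8 cells, 3.92-fold (3.89 to 3.96). The families moved apart, with family 7 66.6-fold (59.8 to 74.4) higher and family 5 10.0-fold (9.74 to 10.3) higher in neutrophils. Family 10 was 175-fold (109 to 300) lower, with 1.71 RPM in neutrophils, against 299 RPM in differentiated HOXB8 cells. By sequence, 61 of 155 were at least 2-fold higher in neutrophils (background 27.7%) and 85 lower (background 67.2%).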

How the data were processed

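The authors' deposited table gives each unique small RNA sequence, its class and record, and its level in 9 libraries as RPM, reads scaled to library size. It is titled as non-miRNA, and mm10 is the build in the submitters' processing notes. For the aligner, trimming and admission filter, the setting is not given in the sources used here. Divided by the RPM of 1 read, 100% of deposited values came out whole within 0.01, so read numbers could be recovered. There were 0 sample columns left unused, and the 4 poly(A) libraries of the series were not used here.

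Members and lists were chosen with earlier results of these data known. Lists and markers by gene symbol could not be applied, since the table pairs its records with no symbol, so families joined by a shared run of 14 bases took the place of names. The naming rule took the 3 highest families of each library, the 3 highest and 3 lowest log2(RPM + 1) ratios among families with a mean of 50 RPM or more in the pair, and up to 10 called sequences by smallest p. Families 10, 12, 14, 15 and 20, the kinds of piece, the length classes and the printed sequences were chosen after their values were seen.

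Read ratios have exact conditional 95% intervals. C box means TGATGA starting within the first 15 bases and D box CTGA within the last 8. limma 3.58.1 (trend, R 4.3.3) tested log2(RPM + 1) for all sequences with a mean of 5 RPM or more, WGA against input over 3 kinds of cell with kind as block, and biotin against input over 9 libraries with kind and purification as terms, with Benjamini-Hochberg adjustment at 0.05. The limma p-values and intervals use a spread that is shared across sequences of like level. They therefore do not measure a single sequence's own spread between kinds of cell. Only differentiated and undifferentiated HOXB8 cells have a biotin library. The fits were tested on simulated data. Alternatives were a pseudocount of 10 RPM, no filter or one at 50 RPM, the joint fit, no block, each kind of cell left out, other summaries of the class, and edgeR 4.0.16 on whole reads. Some sequences that the naming rule takes are not reported here.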

Additional observations from a re-analysis of the deposited data

Results flagged for a closer look

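Family 12 holds 13 sequences of 17 to 77 bases, among them the 77-base one printed above. Its summed level moved one way in neutrophils and the opposite way in both kinds of HOXB8 cell. Its log2(RPM + 1) ratio of WGA to input was -6.87 in neutrophils, against 3.21 in differentiated HOXB8 cells and 5.17 in HOXB8 cells. The difference was not tested, since each value comes from 1 pair of libraries. The neutrophil value rests on 2 reads in the WGA library, against 434 reads in the input. Different sequences carried these sums. D box ends of 20, 27 and 28 bases gave 47.6, 44.0 and 30.2 of the 140 RPM in the neutrophil input. Each had 0 reads in the WGA library of every kind of cell. A 17-base sequence with the C box core gave 153 of 210 RPM after WGA in differentiated HOXB8 cells. In HOXB8 cells it gave 102 of 160 RPM after WGA.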

How the results depend on the processing

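Log2 ratios of summed snoRNA are given here as WGA to input in neutrophils, differentiated HOXB8 and HOXB8 cells, then biotin to input in differentiated HOXB8 and HOXB8 cells. As a share of the summed RPM in the table they were -0.90, -3.47, -3.37, -2.89 and -3.69. Over sequences of 20 or more bases they were -1.34, -2.87, -2.47, -2.12 and -2.42. Without the 10 highest snoRNA sequences they were -0.27, -2.01, -1.27, -1.27 and -1.50, and 8 of those 10 are in families 1 and 2. As a share of distinct sequences they were -0.85 in neutrophils and turned to 0.28, 0.12, 0.11 and 0.14. Without families 1 and 2, an alternative added after seeing the data, all 5 turned, to 2.44, 2.31, 1.88, 2.85 and 1.65. Without family 3, also added then, they were -1.73, -3.34, -2.61, -2.60 and -2.84. The PNGase F to biotin ratio of -0.08 became -0.13 over 20 or more bases, -0.094 without the 10 highest, -0.015 for distinct sequences, -0.059 without families 1 and 2 and -0.11 without family 3. Of the snoRNA sequences called between WGA and input (75), there were 41 with a pseudocount of 10 RPM, 119 in the joint fit, 42 without the block and 42 with edgeR on whole reads, added after seeing the data. Leaving out each kind of cell in turn gave between 0 (without differentiated HOXB8 cells) and 125 (without neutrophils). Of those called between biotin and input (83), limma left 72 with a pseudocount of 10 RPM, 0 with no filter, 36 with a filter at 50 RPM, and edgeR 0. For these counts the cause was not tested. No paired analysis was possible because each small RNA group holds 1 library and no replicate number is shared; limma paired the libraries by kind of cell as a block instead. A count of 0 allows up to 3 reads, which is between 0.302 and 0.965 RPM.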
